A study of Mus musculus with 3 samples.

Results

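Ribosomal proteins assemble with ribosomal RNA into the large and the small subunit of the cytoplasmic ribosome, the particle that translates mRNA into protein. Each protein of the mouse ribosome is as a rule encoded by a single active gene, and these genes are dispersed over the chromosomes and are transcribed in every cell. The genes studied here were all protein-coding mouse genes (mm10) named Rpl or Rps with a number and at most 1 further letter a, x, l or y, together with Rplp0, Rplp1, Rplp2 and Rpsa. There were 80 such genes among 21991 protein-coding genes, 49 of the large and 31 of the small subunit. No measured value was used to choose them, but they were chosen with earlier results of these data known.

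The data were long-term hematopoietic stem cells (LT-HSCs), blood-forming stem cells of the bone marrow, from wild-type female mice aged 24 months (C57BL/6J by the study's methods). Bone marrow was enriched for c-Kit, stained and sorted, and the cells were profiled by DOGMA-seq, a method that measures open chromatin (ATAC), RNA and 12 antibody tags of each cell together. All 3 libraries were made from a single pool of cells without replicates. The labels do not say how many mice were pooled. No test was therefore run, and all intervals are exact 95% intervals that cover counting error only. Promoter accessibility was the number of ATAC fragments that overlapped 1 kb on each side of the transcription start site (TSS), summed over 3629 cells with at least 10 antibody tags. It measures open chromatin and not mRNA. RNA entered only as the total number of unique molecules (UMIs) of a cell, and expression by gene was not analysed here.

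The kept cells held 38554133 nuclear fragments, with a median of 10300 ATAC fragments (range 3859 to 45151), 1978 RNA UMIs and 29 antibody tags per cell. The label was checked at the promoters of cell type markers. Of the 10 HSC markers, 6 lay above the median of all promoters, led by Kit with 463 fragments per 1000 cells. None of the 6 T cell, 7 myeloid and 6 erythroid markers did, against 1 of 6 B cell markers (Ebf1, 135 fragments per 1000 cells) and 3 of 6 megakaryocyte markers. Defining markers of other lineages were near 0, with 5.79 fragments per 1000 cells for Cd3e, 0.551 for Ms4a1 and 0.551 for S100a9. The HSC list was not uniformly open either, with 5.24 fragments per 1000 cells at the start taken for Mecom. Doublets were not removed.

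The promoter letters of 60 of the 80 genes were given by RefSeq (GRCm38.p6, the same assembly as mm10), and 6 of the more accessible ones are shown first because they carry the motifs counted here. Each run spans 60 bases before the start and the first 20 bases of the transcript, read in the direction of the gene. Capitals mark matches, on either strand, to CCGGAAG (the core bound by ETS factors), GGGCGG (a GC box), ATGGCGG (a YY1-type site), CCAAT (the box bound by NF-Y) or TCTCGCGA (a CG-rich palindromic element). The runs are Rps19 at chr7:24884532-24884611 on the plus strand, Rpl27a at chr7:109519135-109519214 on the plus strand, Rps21 at chr2:180257319-180257398 on the plus strand, Rpl13a at chr7:45128726-45128805 on the minus strand, Rpsa at chr9:120127706-120127785 on the plus strand and Rplp0 at chr5:115559407-115559486 on the plus strand.
Rps19: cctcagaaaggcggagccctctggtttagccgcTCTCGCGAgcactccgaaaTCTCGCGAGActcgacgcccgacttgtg
Rpl27a: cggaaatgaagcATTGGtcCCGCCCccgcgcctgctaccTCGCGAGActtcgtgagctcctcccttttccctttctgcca
Rps21: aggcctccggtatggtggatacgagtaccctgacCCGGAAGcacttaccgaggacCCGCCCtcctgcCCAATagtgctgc
Rpl13a: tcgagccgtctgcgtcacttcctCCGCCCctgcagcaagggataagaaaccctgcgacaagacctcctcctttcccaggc
Rpsa: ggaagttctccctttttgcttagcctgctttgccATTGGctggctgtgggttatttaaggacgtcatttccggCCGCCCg
Rplp0: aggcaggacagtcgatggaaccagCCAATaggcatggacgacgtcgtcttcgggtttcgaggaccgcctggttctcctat
Rps19, the gene most often mutated in Diamond-Blackfan anaemia, held TCTCGCGA more than once within these bases, and its last match ended at the first bases of the transcript. Rpl27a carried an element of the same kind and a GC box upstream of a start set in a long run of pyrimidines. Such a run is the start of the TOP mRNAs, whose translation follows growth signals, and it covered 20 bases in Rpl27a and 14 in Rpl13a but 4 in Rps19. The run was read at the annotated start only, so a short run does not show that an mRNA lacks a TOP start. For Rps19 the RefSeq start lay 221 bp from that of the gene record.

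Over the whole 300-base promoters, CCGGAAG was found in 24 of the 60 genes (40%), against 12.3% of all 16522 protein-coding promoters with an entry and 18.0% of the 1792 other promoters in the top 10% by accessibility. TCTCGCGA was in 9 of 60 (15%), against 1.58% of all promoters and 4.52% of the other accessible ones. Its carriers were Rpl7a, Rpl12, Rpl26, Rpl27a, Rpl35, Rps6, Rps15a, Rps19 and Rps28. ATGGCGG was in 9 of 60 (15%), against 5.58% and 9.99%. The short word CTTT within 10 bases of the start, on the strand of the gene, was present in 14 (23.3%), against 6.77% and 4.63%. A pyrimidine run of at least 8 bases within 5 bases of the start was present in 20 (33.3%), against 9.57% and 9.21%. In contrast, GGGCGG (58.3%) and CCAAT (31.7%) were less frequent than in the other accessible promoters (81.6% and 48.3%), and their shares in all promoters were 48.0% and 38.8%. TATAAA between 40 and 15 bases before the start was in none of the 60 and in 2.78% of all promoters. The start used was the furthest upstream start of the curated mRNAs, and matches placed by the start depend on it. At Rpl36a, for example, TATAAA lay just after that start and so outside the window. Mitochondrial ribosomal protein genes, which encode the ribosome of the mitochondrion, were alike in CCGGAAG (36.2% of 69) and ATGGCGG (18.8%) but held TCTCGCGA in 1 promoter (1.45%) and CTTT at the start in 4 (5.80%). The proteasome genes, which encode the main protease of the cytosol, held CCGGAAG in 28.1% of 32 promoters, TCTCGCGA in 3.13% and CTTT at the start in 6.25%. Neither of these sets held TATAAA in its window. These shares describe letters and not binding. The median GC content was 57% in ribosomal protein and in all promoters and 65.3% in the other accessible ones. Most ribosomal protein promoters lay below the top 10%, and no set matched in accessibility or GC content was compared.

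**Figure D1:**
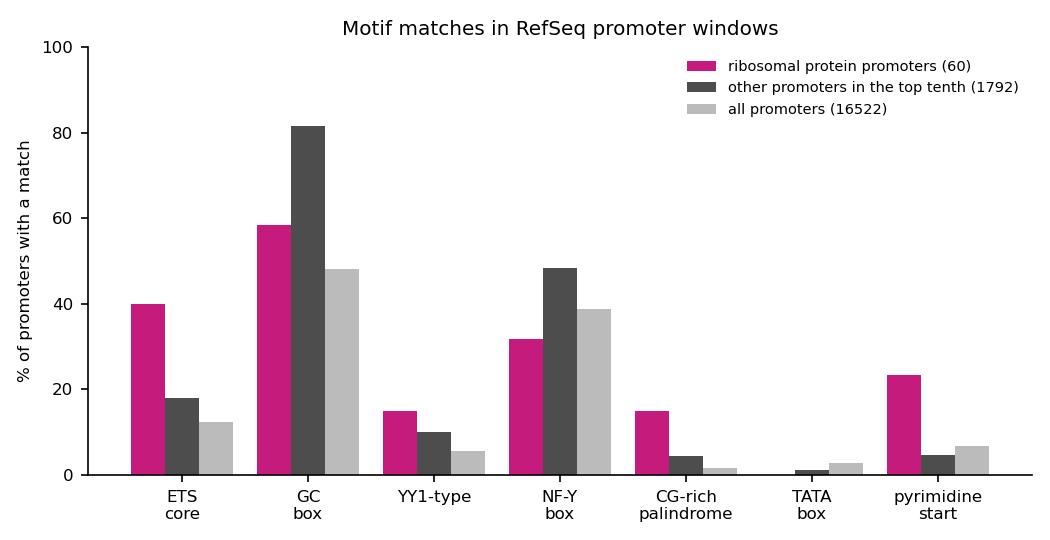
Share of RefSeq promoters with a match (%), for 60 ribosomal protein genes, 1792 other promoters of the top 10% by accessibility and all 16522 promoters. The ETS core, the CG-rich palindrome and the pyrimidine start were more frequent at ribosomal protein genes (40%, 15% and 23.3%) than in the other promoters of the top 10% (18.0%, 4.52% and 4.63%). The GC box was less frequent (58.3% against 81.6%). The sets were not matched in accessibility, GC content or CpG ratio.

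Ribosomal protein promoters were open, but most were not among the most open promoters of these cells. Their median was 385 fragments per 1000 cells, with quartiles of 307 and 478, against 105 for all protein-coding promoters, and the median gene stood at percentile 81.2 of all promoters. Of the 80 genes, 75 lay at or above the median of all promoters, and 12 (15%) reached its top 10%, which starts at 521 fragments per 1000 cells and holds 10.0% of all promoters. Translation factor genes were higher, with a median of 478 fragments per 1000 cells and 17 of 37 in the top 10%. The proteasome genes had a median of 340 with 5 of 39 in the top 10%, and the mitochondrial ribosomal protein genes 262 with 9 of 78. Together the 80 promoters held 109843 fragments, which is 0.285% of nuclear fragments (0.283 to 0.287) and 30.3 fragments per cell. A cell had a median of 29 fragments (range 5 to 116) at a median of 23 of the 80 promoters (range 5 to 55), so at this depth an empty promoter in a single cell does not show that it was closed.

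Both subunits covered overlapping ranges. The 49 large subunit genes had a median of 376 fragments per 1000 cells (quartiles 290 and 470), and the 31 small subunit genes one of 395 (315 and 479). In the large subunit 8 genes reached the top 10% and in the small subunit 4, but 6 in each with RefSeq starts.

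**Figure D2:**
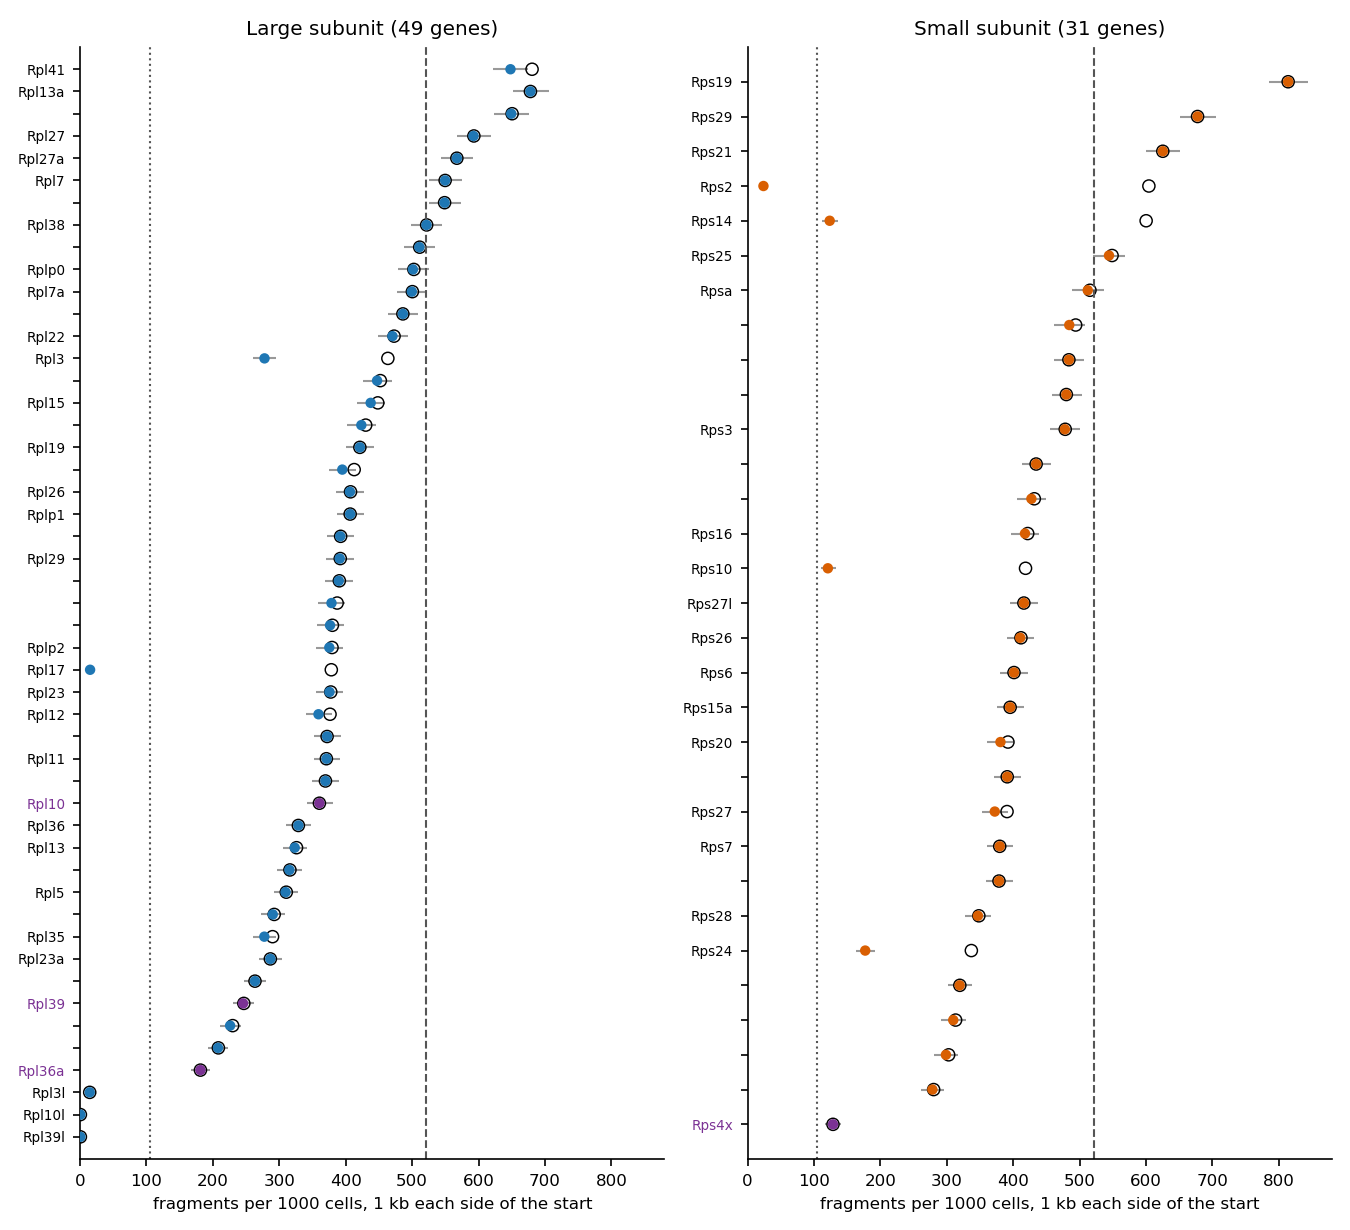
Fragments per 1000 cells within 1 kb of the start for each gene of the large (left) and small subunit (right), with exact 95% Poisson intervals, at the start of the gene record (filled points) and at the annotated transcript start with the most fragments (open circles), with the median of all promoters (dotted, 105), the limit of the top 10% (dashed, 521), genes on chromosome X in purple and symbols only for genes named in the text. Filled and open points part at a few genes such as Rps2 and Rps14, and Rpl3l, Rpl10l and Rpl39l lie near 0 with both.

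The highest promoter was that of Rps19, with 814 fragments per 1000 cells (785 to 844) and at least 1 fragment in 53.2% of cells. Its interval lay above those of all other genes of the family. Rpl13a had 678 fragments per 1000 cells (652 to 705) and Rps29 had 678 (651 to 705). Rpl41, which encodes one of the smallest proteins of the cell, had 648 (622 to 675), and these 3 intervals overlapped one another. Apart from Rps19, no gene of the 80 had a fragment in more than 47.6% of cells.

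At the low end, the annotation of the start decided several values. The RefSeq start lay over 1 kb from the start of the gene record in 8 of the 80 genes. Rps2 had 24.0 fragments per 1000 cells (19.2 to 29.6) at the gene record's start and 600 (575 to 626) at its RefSeq start 1947 bp downstream. For Rpl17 the values were 15.2 (11.4 to 19.7) and 378, with the RefSeq start 1919 bp downstream. Rps14, whose loss from the deleted part of human chromosome 5q is linked to anaemia in myelodysplasia, had 124 (113 to 136) and 577 (553 to 603) at starts 27498 bp apart. Rps10 moved from 121 to 419, Rps24 from 177 to 333 and Rpl3 from 278 to 462. The reverse held for Rpl22, with 470 at the gene record's start and 47.9 (41.1 to 55.6) at a RefSeq start upstream of it, at -1306 bp. With RefSeq starts, the number of genes in the top 10% was again 12, now with Rps2 and Rps14 and without Rpl7 and Rpl38. The count was 13 with the transcript start that held the most fragments, a choice that by construction favours higher levels.

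A paralog is a further gene copy for a similar protein, and the 4 genes whose symbol ends in l fell into separate ranges. Rps27l, a paralog of Rps27 known as a target of p53, had 416 fragments per 1000 cells (395 to 438) at percentile 83.5, against 372 (353 to 393) for Rps27 itself, which rose to 391 with the start of most fragments. Rpl3l, known from heart and skeletal muscle, had 14.6 (10.9 to 19.1). Rpl10l and Rpl39l, both known from male germ cells, had 2 fragments each in all cells, or 0.551 per 1000 cells (0.0667 to 1.99). Their parent genes had 278 (Rpl3, 462 at the RefSeq start), 360 (Rpl10) and 246 (Rpl39) fragments per 1000 cells. Rpl3l starts 7.76 kb from the RefSeq start of Rps2, so neighbouring promoters of the family stood at 14.6 and 600 fragments per 1000 cells. Rpl41 and Rps26, 77.3 kb apart, were both open, with 668 and 411 at RefSeq starts.

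The promoters of the 3 scarcely accessible paralogs are shown for comparison with the open ones. The runs are Rpl3l at chr17:24727766-24727845 on the plus strand, Rpl10l at chr12:66284382-66284461 on the minus strand and Rpl39l at chr16:10170168-10170247 on the plus strand, and capitals have the same meaning.
Rpl3l: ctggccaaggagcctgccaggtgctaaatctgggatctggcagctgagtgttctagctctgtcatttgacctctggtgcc
Rpl10l: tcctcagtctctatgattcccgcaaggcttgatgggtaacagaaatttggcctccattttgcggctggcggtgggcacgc
Rpl39l: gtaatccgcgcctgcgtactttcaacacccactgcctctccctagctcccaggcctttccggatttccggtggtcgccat
No motif of the 5 fell within these 80 bases, while over the whole promoter Rpl39l held CCGGAAG and Rpl10l held GGGCGG. The open runs shown first were chosen for their motifs, so this contrast does not set closed promoters apart. The same 80 bases of Rpl27 (590 fragments per 1000 cells at its RefSeq start), Rpl5, Rpl10 and Rpl39 held no match either. The observed over expected ratio of CpG dinucleotides was 0.0892 in Rpl3l, 0.643 in Rpl10l and 0.836 in Rpl39l. Its median was 0.863 in the 60 promoters and 0.600 in all promoters, and the open Rpl27 had 0.536.

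Genes on chromosome X had lower promoters than most of the family. Rpl10 had 360 fragments per 1000 cells (341 to 381), Rpl39 had 246 (230 to 262), Rpl36a had 181 (168 to 196) and Rps4x had 129 (117 to 141). Of 72 autosomal genes without the paralogs, 55 lay above Rpl10, 69 above Rpl39, and 71 above both Rpl36a and Rps4x at RefSeq starts. The remaining gene, Rpl22, lay below them only at its RefSeq start, and with the start of most fragments Rps4x and Rpl36a were the lowest of the 76 genes that are not paralogs. The same order held outside the family. All 948 protein-coding promoters on chromosome X had a median of 11.6 fragments per 1000 cells and the 20807 on autosomes one of 116. Among promoters with at least 200 fragments, a filter on the level compared, the medians were 152 (358 promoters) and 277 (12570 promoters). Female cells silence one X chromosome, and the part of this silencing in these levels was not tested. The promoters of the lowest pair, shown because GC boxes were present at one and absent within these bases from the other, are Rps4x at chrX:102189372-102189451 on the minus strand and Rpl36a at chrX:134585594-134585673 on the plus strand.
Rps4x: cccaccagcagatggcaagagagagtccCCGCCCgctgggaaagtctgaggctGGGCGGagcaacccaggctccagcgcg
Rpl36a: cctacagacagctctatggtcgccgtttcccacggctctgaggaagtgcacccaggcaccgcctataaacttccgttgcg
Rps4x carried GGGCGG on both strands within 60 bases of its start and had the lowest level of the pair. Over the whole 300-base promoter Rpl36a held GGGCGG too.

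The stalk proteins, which recruit translation factors to the large subunit, are encoded by Rplp0, Rplp1 and Rplp2. Rplp0 had 501 fragments per 1000 cells (478 to 525), above Rplp1 with 407 (386 to 428) and Rplp2 with 375 (356 to 396), whose intervals overlapped. Rpsa, a small subunit protein also described as a laminin receptor, had 512 (489 to 536). Rpl5 and Rpl11 encode the proteins that bind MDM2 with 5S RNA when ribosome assembly fails. They had 309 (292 to 328) and 371 (352 to 392). The median of the family, 385, lay above the interval of Rpl5 but inside that of Rpl11.

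Genes outside the naming rule gave a similar picture. Rps3a1, which encodes the small subunit protein eS1, had 441 fragments per 1000 cells (420 to 463). Fau, which encodes a small subunit protein fused to a ubiquitin-like protein, had 421 (400 to 443), Rack1 of the small subunit 223 (208 to 239), and the paralogs Rpl36al, Rpl22l1 and Rpl7l1 had 496, 451 and 326. Rps27rt, a single-exon copy of Rps27, had 6.06 (3.80 to 9.18).

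Small nucleolar RNAs are encoded in introns of several of these genes, and hosts were not more open. Without the paralogs, 29 hosts had a median of 379 fragments per 1000 cells and 47 other genes one of 395. In 15 of the 76 genes the window held the start of another protein-coding gene, so its fragments cannot be assigned to 1 gene, and the median was 370 in these and 395 in the other 61. Across 57 promoters with letters and without the 3 paralogs, level and GC content had a rank correlation of 0.394, given as a description. Genes with GGGCGG had a median of 436 fragments per 1000 cells and those without one of 372, in ranges that overlapped (129 to 813 and 47.9 to 548). With and without CCGGAAG the medians were 421 and 374, and with and without TCTCGCGA they were 401 and 396. The order was the reverse for ATGGCGG (380 with and 404 without) and CCAAT (394 and 404). For CTTT at the start they were 401 and 400.

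Transposase insertions were concentrated close to the start. At RefSeq starts of the 76 genes, 64.5% of the insertions in the window lay within 250 bp of the start, against 55.9% at all promoters and 66.1% at proteasome genes. The highest 10-bp bin began 30 bp upstream and held 2.74% of insertions, against 1.99% in the same bin of all promoters. A dip followed at 150 bp downstream with 0.279% per bin, and a further maximum at 230 bp with 0.955%. All promoters had the dip at 140 bp with 0.477% and the maximum at 220 bp with 0.737%, so the relief was deeper at the ribosomal protein genes. Proteasome genes had 0.418% and 1.07% at the dip and the maximum, and mitochondrial ribosomal protein genes 0.351% and 0.874%. A protected stretch between such maxima is where the first nucleosome of a gene usually lies. Exons of this family also have many near-identical pseudogene copies, and how reads of such copies were assigned was not tested.

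**Figure D3:**
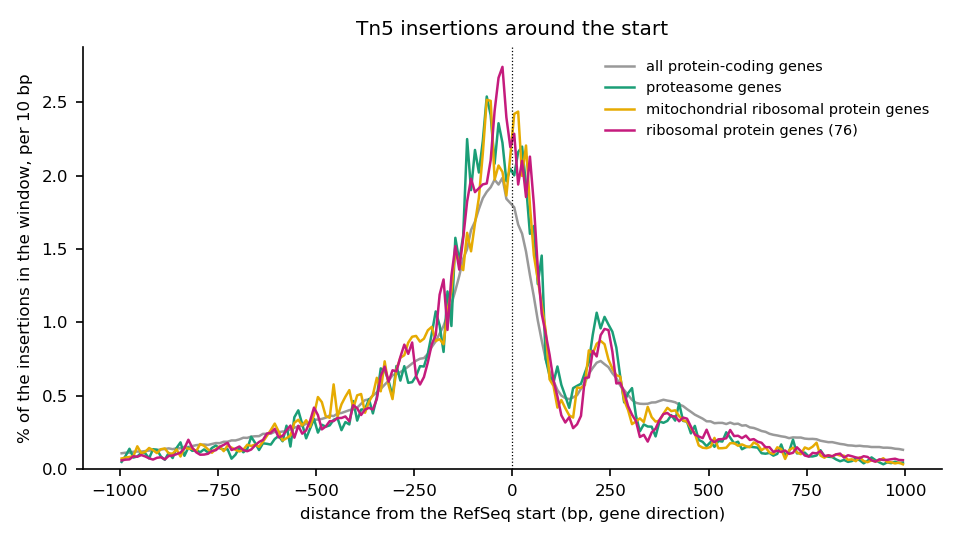
Insertions per 10-bp bin as a percent of all insertions in the window, by distance from the RefSeq start in the direction of the gene. The 76 ribosomal protein genes peak at 2.74% just upstream of the start, dip to 0.279% at 150 bp downstream and rise to 0.955% at 230 bp, while all promoters reach 1.99%, 0.477% and 0.737%.

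Fragments of up to 100 bp, which are too short to span a nucleosome, made up 32.3% of fragments at the 80 promoters (32.0 to 32.6). The share was 33.8% at all promoters, 38.8% at the other promoters of the top 10%, 33.1% at proteasome genes and 25.7% of all nuclear fragments. Among the 75 genes with at least 200 fragments it ranged from 14.0% at the gene record's start of Rps14 to 45.4% at Rpl22, with a median of 31.1%. Large and small subunit genes had 31.8% (31.4 to 32.1) and 33.1% (32.7 to 33.6).

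Cells with more RNA for their ATAC depth were compared with cells with less, to ask whether accessibility at these genes followed the RNA content of a cell. RNA UMIs per ATAC fragment had a median of 0.286 in the 25% of cells with the highest and 0.140 in the 25% with the lowest ratio, 907 cells each. Ribosomal protein promoters took 0.291% of nuclear fragments in RNA-rich and 0.278% in RNA-poor cells, a log2 ratio of 0.07 (0.04 to 0.09). This was the ratio of all protein-coding promoters (0.07) and below that of the other promoters of the top 10% (0.11, 0.109 to 0.116). Scaled by all promoter fragments, the log2 ratio of the ribosomal protein genes was 0.00026 (-0.025 to 0.025). Scaled by the other promoters of the top 10%, it was -0.04 (-0.07 to -0.02). The latter scaling was chosen after the data were seen, and those promoters are more open than most of the family. Mitochondrial ribosomal protein genes (0.09), proteasome genes (0.09) and translation factor genes (0.10) had ratios whose intervals overlapped that of the ribosomal protein genes. The large subunit had 0.06 (0.03 to 0.10) and the small subunit 0.08 (0.04 to 0.12).

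ATAC depth moved with this split, with a median of 7774 fragments in RNA-rich and 11746 in RNA-poor cells, because the split divides by it. When cells were ordered by depth and cut into 4 equal groups, the share of fragments at ribosomal protein promoters was 0.312% (0.308 to 0.317) in the shallowest group, 0.300% and 0.281% in the middle groups and 0.266% (0.263 to 0.269) in the deepest. All protein-coding promoters went from 43.2% to 37.9% over the same groups, and the other promoters of the top 10% from 16.5% to 13.5%. These sums count a fragment once per overlapped window. When RNA-rich and RNA-poor cells were taken within 10 bins of ATAC fragments, with median depths of 10298 and 10299 and 2640 against 1476 UMIs, the ratio turned to -0.04 (-0.07 to -0.02). Mitochondrial ribosomal protein (-0.0034), proteasome (-0.011) and translation factor genes (-9.05e-05) had intervals that held 0. All promoters then had -0.02 and the other promoters of the top 10% -0.03 (-0.0335 to -0.0267), inside the interval of the family. So the direction of the RNA comparison depended on whether depth was matched between the groups, and on the scaling. Thinning each cell to 6000 fragments left groups unmatched in original depth, with medians of 8780 and 11857, and gave 0.07 (0.03 to 0.10).

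**Figure D4:**
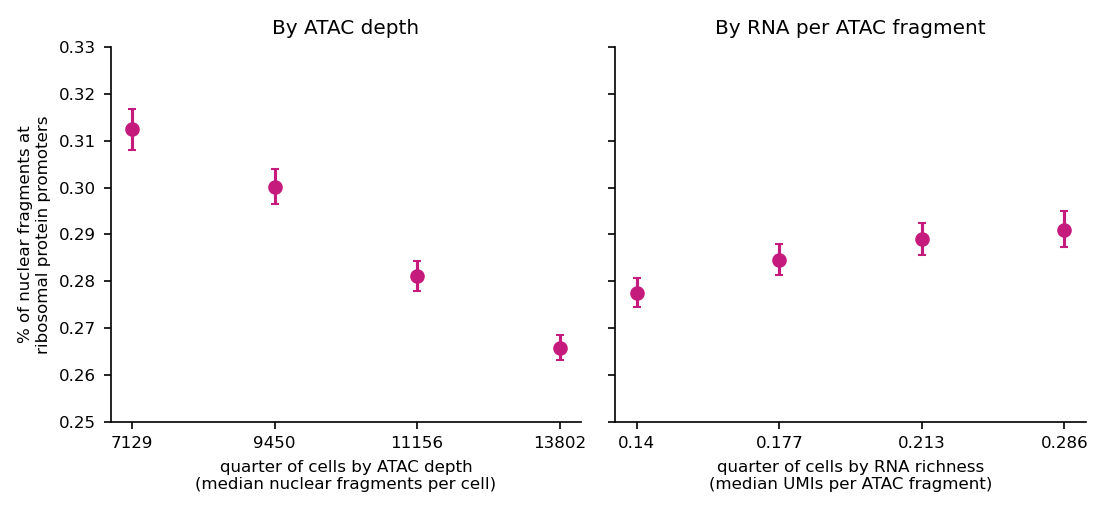
Share of nuclear fragments at the 80 promoters (%) in 4 equal groups of cells by ATAC depth (left) and by RNA UMIs per ATAC fragment (right), with exact 95% Poisson intervals and a vertical axis that starts at 0.25%. The share falls from 0.312% to 0.266% with depth and rises from 0.278% to 0.291% with RNA per fragment, an order that turned round within bins of ATAC depth.

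Single genes were compared between RNA-rich and RNA-poor cells as well. Of 75 genes with at least 200 fragments over both groups, 1 was higher by at least 0.322 on the log2 scale, the fold set as a limit, and 0 were as much lower. Among all protein-coding promoters with as many fragments 2.7% were past that fold upward and 1.59% downward, and among those of the top 10% 0.953% and 0%. The count of the family was near these shares, and it was 0 when scaled by all promoter fragments or when all cells were split at the median. It was also 0 in the 363 cells with at least 50 tags. Few if any genes could hold the 200 fragments needed there, so that 0 says nothing about the family. In cells thinned to 6000 fragments 4 of 69 tested genes were past the fold upward and 1 downward, where 4.35% and 1.73% of all promoters were. Without thinning, the gene past it was Rps4x, with 14.5 fragments per 1000000 in RNA-rich and 11.4 in RNA-poor cells, but on 110 and 127 fragments its log2 ratio of 0.35 had an interval from -0.03 to 0.73. The highest lower bound was at Rpsa, with 53.0 and 42.7 fragments per 1000000 and a log2 ratio of 0.31 (0.12 to 0.51). Rpl19 followed with 42.0 and 34.6 (0.28, 0.06 to 0.50), and Rpl13a with 68.7 and 58.7 (0.23, 0.06 to 0.39). The lowest upper bounds were at Rpl23 (-0.18, -0.42 to 0.05), Rpl39 (-0.19, -0.49 to 0.09) and Rplp1 (-0.12, -0.34 to 0.10), and all 3 intervals held 0. These genes have the most extreme bounds of 75 intervals, and their intervals were not widened for that choice.

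In the study, antibodies served to tell platelet-biased HSCs (PLT-HSCs, high in CD61 and CD274) from multi-lineage HSCs (MUL-HSCs, high in CD357 and CD27). High and low cells were the 25% with the most and the 25% with the fewest tags, as near as ties allowed. For CD61 (integrin beta 3) the log2 ratio of the family was -0.02 (-0.04 to 0.01) in 779 high against 727 low cells. It was 0.01 (-0.01 to 0.04) for CD274 (PD-L1), in 937 and 877 cells, although the other promoters of the top 10% had 0.03 (0.0239 to 0.0306). For CD357 (GITR) it was -0.02 (-0.04 to 0.01) in 968 high against 1200 low cells. For CD27 it was 0.01 (-0.01 to 0.04) in 825 cells with at least 2 CD27 tags against 1578 with 0. Both of these low groups held well over 25% of cells. All 4 intervals held 0, which does not show that the groups were alike. The CD357 interval left out 0 with RefSeq starts (-0.02, -0.046 to -0.0033), with the transcript start of most fragments (-0.03, -0.046 to -0.0038) and when scaled by the other promoters of the top 10% (-0.02, -0.044 to -0.00025). The CD274 interval left it out in cells with at least 50 tags (0.12, 0.05 to 0.19). High and low cells had like ATAC depth in all 4 splits, with medians between 10218 and 10506 fragments. Total tags moved with each split, most with CD274, where high cells had a median of 46 tags and low cells 17. The share of fragments in peaks was 67.8% in CD274-high and 65.3% in CD274-low cells, and its part in the ratios was not tested.

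Of the other 8 antibodies, 5 had a ratio above 0 and 7 had an interval that held 0. The exception was CD201 (EPCR, a surface marker of HSCs). Cells with a CD201 tag (1119) had 0.289% and cells without (2510) 0.283% of fragments at these promoters, a log2 ratio of 0.03 (0.01 to 0.04). All promoters had 0.02 and the other promoters of the top 10% 0.03 in the same split, so the family moved with promoters at large. In the large subunit the CD201 ratio was 0.04 (0.01 to 0.06) and in the small subunit 0.01 (-0.02 to 0.04). The large subunit interval also left out 0 for CD27 (0.03, 0.0027 to 0.059) and CD68 (0.04, 0.0015 to 0.082), where the small subunit had -0.01 (-0.05 to 0.02) and -0.01 (-0.06 to 0.04). The CD68 split had 281 cells with a tag against 3348 without. The other promoters of the top 10% had 0.00023 for CD27 and 0.0052 for CD68. These intervals were picked from those of both subunits for all 12 antibodies and were not widened for that choice. The difference between the subunits was not tested. CD163 and CD206 left 71 and 82 cells with a tag, and their intervals were the widest of the antibodies (-0.03 to 0.10 and -0.06 to 0.06).

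Both pairs of antibodies were also combined. A PLT gate of 342 cells had CD61 and CD274 tags over the median while CD357 and CD27 were not, and a MUL gate of 61 cells had the reverse. These were splits at the median tag count, and the thresholds of the study's gates were not used. Median total tags were 37 in the PLT gate and 26 in the MUL gate. The share of fragments at ribosomal protein promoters was 0.285% for the PLT gate against 0.288% for the MUL gate, a log2 ratio of -0.01 (-0.09 to 0.06). The precision was set by the 601242 fragments of the MUL gate.

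**Figure D5:**
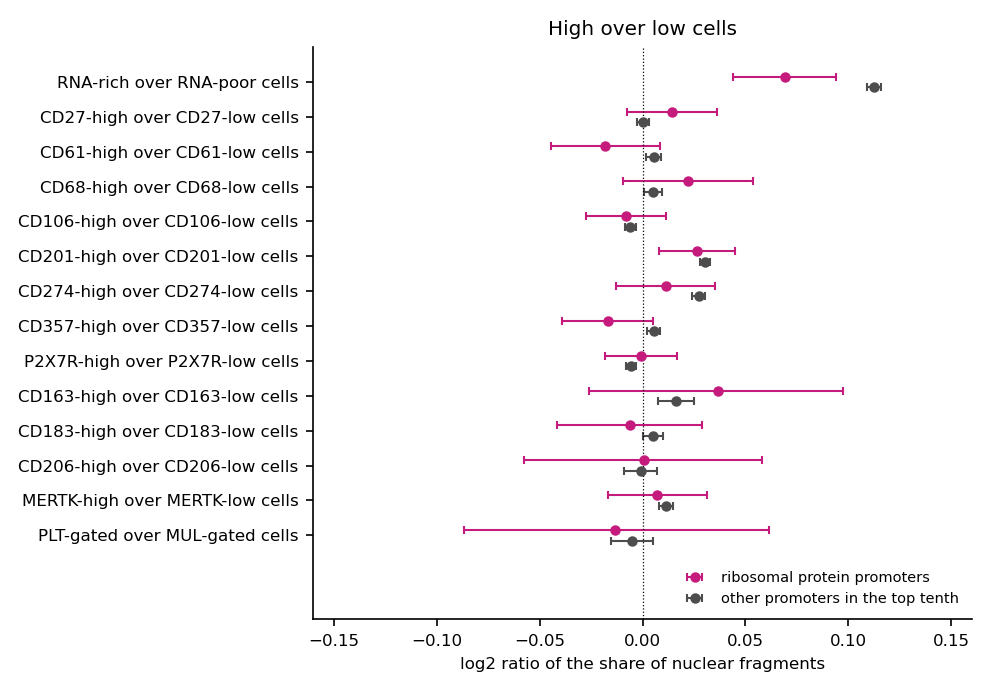
Log2 ratio of the share of nuclear fragments in high over low cells, for ribosomal protein promoters and for the other promoters of the top 10%, with exact 95% intervals for counting error. For the family the RNA split (0.07) and the CD201 split (0.03) have intervals that leave out 0, and in both the other accessible promoters move the same way (0.11 and 0.03), while the RNA ratio was -0.04 within bins of ATAC depth.

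By gene, the most extreme bounds of 72 to 75 intervals were named in each split, and the intervals were not widened for that choice. Of 72 tested genes, 0 were past the fold upward and 1 downward with CD61, against 2.74% and 2.02% of all promoters. The gene was Rps24, with 14.9 against 19.2 fragments per 1000000 (log2 ratio -0.37, -0.72 to -0.01). Its value comes from the gene record's start, 3553 bp from the RefSeq start. With CD274 no gene of 75 was past the fold, against 3.61% upward and 2.03% downward. The highest lower bounds were at Rpl15 with 45.6 against 36.6 fragments per 1000000 (0.316, 0.11 to 0.52) and Rpl13a with 68.9 against 59.5 (0.21, 0.05 to 0.37). The lowest upper bounds were at Rpl23a with 24.0 against 29.9 (-0.319, -0.57 to -0.07) and Rpl36 with 26.96 against 32.36 (-0.26, -0.50 to -0.02). With CD357 0 were past it upward and 1 downward, against 1.24% and 1.55%. That gene was Rps7, with 29.5 against 37.7 fragments per 1000000 (-0.35, -0.56 to -0.14). Rps16 had the next lowest upper bound (-0.22, -0.41 to -0.03), and Rps3 (0.20, 0.03 to 0.38) and Rps25 (0.12, -0.05 to 0.29) had the highest lower bounds. With CD27 no gene of 75 was past the fold, against 1.37% upward and 1.62% downward. Rplp0 had 53.8 against 45.1 fragments per 1000000 (0.25, 0.09 to 0.42) and Rpl29 had 40.3 against 34.4 (0.23, 0.04 to 0.42), which were the highest lower bounds. The lowest upper bounds were at Rps20 (-0.17, -0.38 to 0.03) and Rpl27 (-0.11, -0.28 to 0.05), whose intervals held 0. Rpl13a also had the highest lower bound for CD61 (0.17, -0.01 to 0.35), next to Rpl13 (0.25, -0.01 to 0.51). The lowest upper bounds there were at Rps24 and at Rpl27a (-0.21, -0.41 to -0.02).

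Single cells held too few fragments to follow single genes, so sums were compared. Across the 3629 cells of the pool, the fragments at all 80 promoters had a rank correlation of 0.705 with nuclear fragments. Given nuclear fragments, large and small subunit sums had a correlation of 0.0998, and 0.0654 given the fragments at all promoters as well. The sums are small counts of the same libraries, and values this weak are no finding. Fragments at the 80 promoters and RNA UMIs had -0.0654 given nuclear fragments and -0.00881 given all promoter fragments as well. With the tags of the 12 antibodies, given nuclear fragments, the correlations lay between -0.0135 (CD106) and 0.0342 (CD201).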

How the data were processed

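LT-HSCs of 24-month-old female mice gave 3 libraries of 1 pool. The deposited files hold raw counts that the authors made with Cell Ranger ARC 2.0.2 (mm10), per the submitters' notes: ATAC fragments after duplicates were collapsed, RNA UMIs of every barcode, and antibody tags, which were counted with CITE-seq-Count (version not given in the sources used here). Of 43705382 fragments, 93.6% lay in 4369 called cells, of which 3724 were in the antibody table and 3629 had at least 10 tags. Doublets were not removed.

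Fragments were counted over 1 kb on each side of the 5′ end of each GENCODE M21 gene record. In sums over promoters, a fragment that overlapped the windows of more than 1 gene was counted for each of them. Log2 ratios were scaled by nuclear fragments after adding 0.5 to counts, with exact conditional binomial intervals. Levels and shares of nuclear fragments had exact Poisson intervals, in place of the binomial ones planned for the latter, and short fragment shares exact binomial intervals. The fold limit of 0.322 on the log2 scale was applied to genes with at least 200 fragments over both groups. RefSeq starts were those of curated mRNAs and were found for 20327 genes. RefSeq GRCm38.p6 and GENCODE M21 share the assembly of mm10. The functions were tested on simulated data.

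The members, gene lists and motifs were chosen with earlier results of these data known. Named genes were the 5 highest and 5 lowest, those on chromosome X, the paralogs, the stalk genes and Rpsa, Rpl5, Rpl11, Rps14 and Rps19, and the highest lower and lowest upper bounds of each comparison. Some of these genes are not reported here. Genes outside that rule, such as neighbours and genes with distant starts, were chosen after their values were seen. Alternatives were other cells, windows, starts, scalings, splits and members, and RefSeq starts and scaling by the other promoters of the top 10% were added after the data were seen. Scripts ran under Python 3.11.15 and used pandas 2.3.3, scipy 1.17.1, matplotlib 3.10.9 and numpy 2.4.6.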

Additional observations from a re-analysis of the deposited data

How the results depend on the processing

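With 1 pool and no replicates, values were taken as moved when they left the 95% interval of the main value (for the median level, that of a gene at the median, 365 to 406), or a count when it changed by over 1.5 times. No paired analysis was possible because the groups hold 1 sample each. The short fragment share has no value for insertions. The log2 ratio of RNA-rich over RNA-poor cells was 0.07, but -0.0089 (-0.086 to 0.068) in the 363 cells with at least 50 antibody tags. It was -0.042 within bins of ATAC fragments, -0.043 when scaled by the other promoters of the top 10% and 0.00026 when scaled by all promoter fragments. Scaling by the other promoters and RefSeq starts were chosen after seeing the data. Genes past the fold there numbered 1, but 0 scaled by promoter fragments and 0 with all cells split at the median. The count was 0 at a fold of 1.5 and 5 of 69 in thinned cells. Of all promoters in thinned cells, 4.35% were past the fold upward and 1.73% downward. The count was also 0 with at least 50 tags. Few if any genes could reach the fragment minimum in those cells, so that 0 says nothing about the family. Keeping cells with at least 50 tags moved the CD274 ratio to 0.12 (0.05 to 0.19) and the CD27 ratio to 0.051 (-0.022 to 0.124). The ratios of other promoters in those cells are not given here. The same setting moved the median level to 449 fragments per 1000 cells and the total share to 0.287%. Scaling by the other promoters of the top 10% moved the CD274 ratio to -0.016 (-0.040 to 0.0079). Tertiles moved the PLT over MUL ratio to -0.11, and its interval still held 0. The median level was 340 in all called cells, 365 with a window of 500 bp and 757 for insertions, of which a fragment has 2. The total share was 0.261% with 500 bp, 0.306% with the best transcript start, 0.300% with RefSeq starts, 0.556% for insertions, 0.710% of promoter fragments and 0.236% over the 65 genes alone in their window. The short share was 33.4% with 500 bp and 33.1% over those 65 genes. The number of genes in the top 10% stayed between 11 and 14. No cause was tested for these moves beyond what each setting changes by construction. Depth limits single genes, as in Rps4x, whose 110 and 127 fragments gave an interval that held 0.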
